A study of Mus musculus with 7 samples.

Results

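The 10 genes described here belong to the antioxidant program run by the transcription factor Nrf2, and they were read in RNA-seq of mouse skin papillomas with and without induced *Nanog*. The members were the entries whose symbol was *Nfe2l2*, *Keap1*, *Nqo1*, *Hmox1*, *Slc7a11*, *Gclc*, *Gclm*, *Gpx2*, *Srxn1* or *Txnrd1*, 10 of the 23284 symbols listed in each papilloma. Their levels are given as FPKM, a unit of fragments that corrects for gene length and for sequencing depth. Each of the 10 symbols was found once in every papilloma.

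In 4 control (CTR) and 3 transgenic (TG) C57Bl/6 mice, skin papillomas were raised with the mutagen DMBA followed by the tumor promoter TPA. The CTR mice carried the tetO-*Nanog* transgene, a *Nanog* cDNA behind a doxycycline-responsive promoter placed downstream of *Col1a1*, and lacked the transactivator. The TG mice carried the same transgene plus K5-rtTA, in which the bovine keratin 5 promoter drives the transactivator in basal keratinocytes. Doxycycline was given to both groups in the drinking water at 2 mg/ml during the whole DMBA/TPA protocol, so that CTR and TG differed in the transactivator and not in the drug. Mice were littermates matched for age when the protocol began, and papillomas were taken either when it ended or earlier, once a mouse had reached a humane endpoint. The paper reports that many TG mice were killed before the end because of large carcinomas, whereas every CTR tumor was benign. The labels do not give the age at collection, so a difference in it between CTR and TG was not tested. Each papilloma came from a different mouse, and p-values therefore measure the spread between mice. *Nanog* read 2.7 to 12.7 FPKM in CTR and 36.9 to 66.9 FPKM in TG papillomas, and even this difference did not pass adjustment (3.45 on the log2 scale, adjusted p = 0.400 from limma). The question asked of the 10 genes was whether their levels differed between CTR and TG papillomas.

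Nrf2, the product of *Nfe2l2*, is held in the cytoplasm and marked for degradation by the adaptor Keap1. Electrophiles and oxidants modify cysteines of Keap1, after which Nrf2 accumulates, pairs with small Maf proteins and binds antioxidant response elements in the promoters and enhancers of its targets. The targets make glutathione, detoxify quinones, degrade heme and reduce peroxides and oxidized protein thiols, and in mouse skin the pathway is known for its part in the defense of keratinocytes against chemical carcinogens and sunlight. Since much of the control of Nrf2 acts on the protein, the mRNA of *Nfe2l2* and *Keap1* is only a partial reading of the pathway.

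The promoter bases of 3 members are shown because they carry, in turn, 1 match, several matches and no match to the core of the antioxidant response element. RefSeq promoter windows on GRCm38.p6 reach from 250 bases before to 50 bases after a transcription start, and the table held 10 windows for 8 of the 10 members. The element was searched on both strands as TGACNNNGC and TGAGNNNGC, and the AP-1 site, bound by the Fos and Jun proteins that TPA is known to induce, as TGACTCA. Below, the 250 bases before the start of each gene are written 5′ to 3′ on the strand of the gene, with every match in capitals. They lie at chr3:122245307-122245556 on the plus strand for *Gclm*, chr2:152105274-152105523 on the plus strand for *Srxn1* and chr12:76795555-76795804 on the minus strand for *Gpx2*.
Gclm: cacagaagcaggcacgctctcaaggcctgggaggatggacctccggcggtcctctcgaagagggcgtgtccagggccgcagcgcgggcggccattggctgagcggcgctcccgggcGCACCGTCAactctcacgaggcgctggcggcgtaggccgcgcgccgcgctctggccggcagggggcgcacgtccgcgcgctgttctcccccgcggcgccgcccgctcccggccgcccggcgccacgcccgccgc
Srxn1: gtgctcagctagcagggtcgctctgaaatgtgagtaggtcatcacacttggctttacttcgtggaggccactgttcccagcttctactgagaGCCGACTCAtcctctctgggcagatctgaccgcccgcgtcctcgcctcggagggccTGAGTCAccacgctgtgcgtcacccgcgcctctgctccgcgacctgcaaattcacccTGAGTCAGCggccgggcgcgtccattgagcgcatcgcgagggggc
Gpx2: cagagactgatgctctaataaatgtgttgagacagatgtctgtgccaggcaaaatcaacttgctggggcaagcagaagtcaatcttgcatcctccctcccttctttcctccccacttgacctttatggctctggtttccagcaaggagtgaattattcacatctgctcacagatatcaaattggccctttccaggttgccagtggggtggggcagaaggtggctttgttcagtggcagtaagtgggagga

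The window of *Gclm* held 1 match to the element, 134 bases before the start and on the opposite strand. The *Srxn1* window held matches to TGAGNNNGC that began 158 and 45 bases before the start, and AP-1 matches at 102 and 45 bases before it, of which the second lies inside the element match. A further element match began 29 bases after the *Srxn1* start, outside the bases shown. Single matches were also present 240 bases before the start of *Nfe2l2*, 97 bases before that of *Slc7a11* and 92 bases before 1 of the 3 starts of *Txnrd1*. No match stood in the windows of *Nqo1*, *Keap1* and *Gpx2*, and none in the other 2 windows of *Txnrd1*. An element match was thus found in 5 of the 10 windows, against 27.8% of all 32851 RefSeq promoter windows of this length. The single forms were less common, with TGACNNNGC in 12.4%, TGAGNNNGC in 17.6% and the AP-1 site in 5.2% of all windows. These are matches of letters, and no binding was measured. Bases outside the windows were not searched, so a window without a match does not show that a gene lacks the element.

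**Figure D1:**
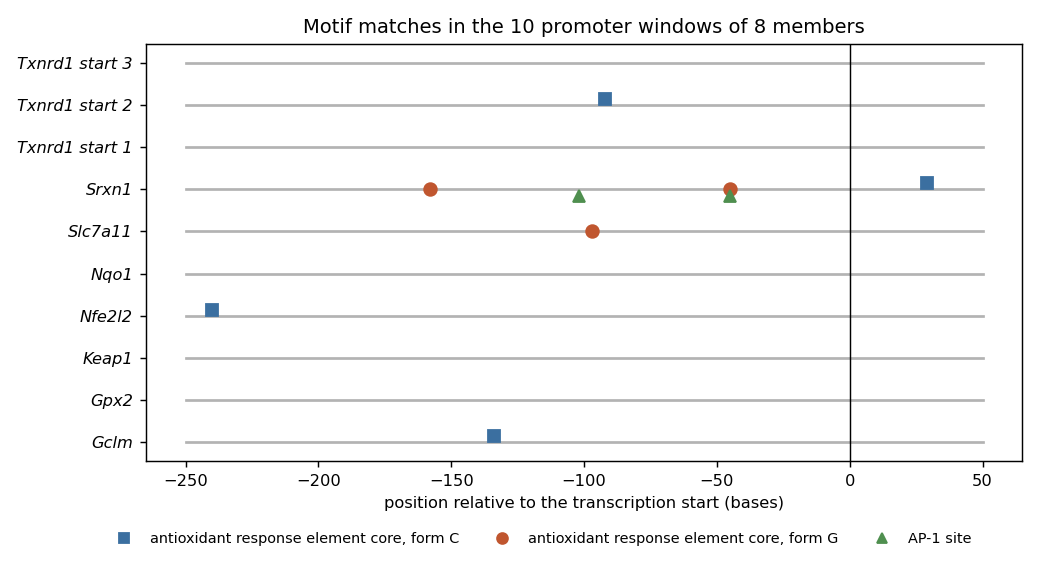
Matches to 2 forms of the antioxidant response element core (form C, TGACNNNGC; form G, TGAGNNNGC) and to the AP-1 site in the promoter windows of 8 members; the x axis is the distance of the first base of a match from the transcription start in bases, and each grey line is 1 window. *Srxn1* holds 5 matches, and *Nqo1*, *Keap1*, *Gpx2* and 2 of the 3 *Txnrd1* windows hold none.

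Library depth, inferred from the width of the Cufflinks intervals, was 15622165 reads for CTR 3 and 15710562 for TG 1, and 10074859 to 10671027 for the other 5 papillomas. At this depth the interval that Cufflinks gives for a member reached 1.86% to 10.5% above its value, which covers counting error and not the spread between mice. The skin label was checked against keratinocyte markers, whose summed level was 10672.2 to 13599.8 FPKM in CTR papillomas. TG 1 and TG 2 were above that range, at 19768.4 and 17679.4 FPKM, and TG 3 was below it, at 9026.7 FPKM. TG 3 stood apart: its profile correlated with the others at r = 0.903 to 0.937, against 0.945 to 0.977 among the other 6, and its median gene read 1.038 FPKM, against 0.481 to 0.596 FPKM. Markers of other cells were also high in TG 3, with skeletal muscle at 634.1 FPKM against 2.15 to 5.36 elsewhere, fibroblasts at 684.2 against 74.9 to 130.3, and macrophages at 140.6 against 34.5 to 55.6. Neutrophil markers summed to 606.7 to 1810.6 FPKM in CTR and 1680.1 to 4221.7 FPKM in TG, and erythroid markers to 34.7 FPKM in TG 1 against 3.62 to 11.2 FPKM elsewhere. The neutrophil list named *S100a8* and *S100a9*, and the part of single genes in its sum was not tested. The remaining lists summed to 8.35 to 14.3 FPKM in CTR and 11.7 to 28.9 in TG for endothelium, 1374.0 to 3228.2 and 1545.0 to 2268.7 for adipocytes, 1.6 to 3.02 and 1.82 to 3.94 for T cells, and 2.88 to 5.78 and 2.64 to 8.48 for mast cells. No marker was at 0 in all papillomas, but some lists rested on few genes. Only 2 of the 6 adipocyte markers reached a mean of 0.5 FPKM, so nearly all of that sum came from these 2. Of them, 1 had a higher and 1 a lower TG mean. Among the 7 T cell markers, 1 reached that mean. In whole tumors, fewer cells of a type and less RNA per cell cannot be told apart.

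Of the 10 members, *Gclc*, *Gclm* and *Gpx2* were lower in each of the 3 TG than in each of the 4 CTR papillomas, at a CTR to TG ratio of means between 1.79 and 1.98. *Nqo1*, *Nfe2l2*, *Slc7a11*, *Srxn1* and *Keap1* had lower TG means with overlapping groups, and *Hmox1* and *Txnrd1* had higher TG means. None passed the Benjamini-Hochberg threshold of 0.05 in limma, where the members' adjusted p ran from 0.564 to 0.972. Nor did any of the 12299 genes tested, of which 0.0% were called in either direction. At an unadjusted p under 0.05, the same test gave 3 lower and 0 higher among the 9 members it could use, against 1.96% of all tested genes lower and 4.86% higher. The 3 members whose groups did not overlap compare with 2.23% of tested genes that were lower in every TG papilloma. A lower TG mean was found for 8 of the 9 members and for 40.0% of tested genes. That share of tested genes was 49.7% under upper-quartile scaling, 55.1% under quantile normalization and 54.2% without TG 3. The members with a lower TG mean numbered 8 under each of these. The median difference in log2(FPKM + 0.5) was -0.44 over the 9 members and 0.06 over all tested genes.

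**Figure D2:**
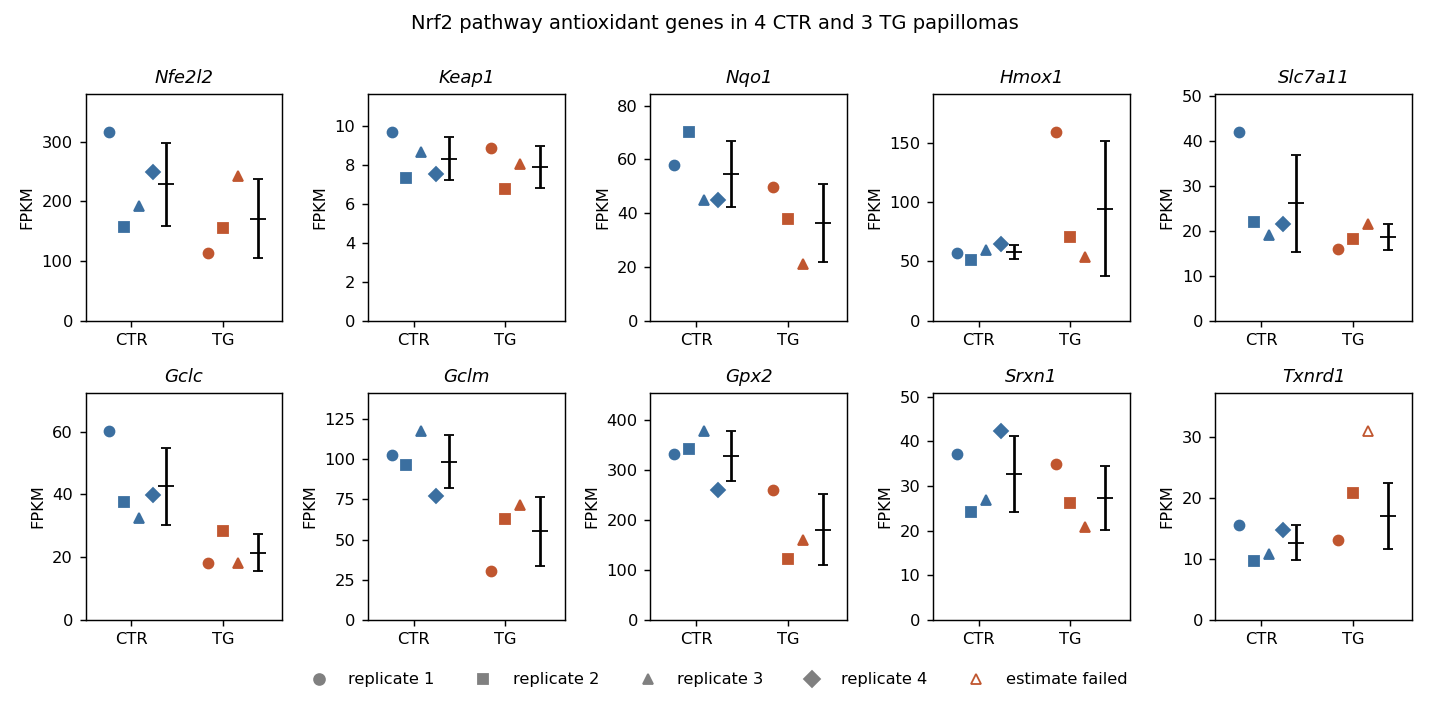
FPKM of each member (y axis, from 0) in 4 CTR and 3 TG papillomas; each symbol is 1 papilloma, and the bar beside each group is its mean ± SD. *Gclc*, *Gclm* and *Gpx2* show no overlap of the groups, although the lowest CTR and the highest TG value of *Gpx2* are only 260.9 and 260.0 FPKM, and the open symbol of *Txnrd1* is the failed estimate of TG 3.

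Among the regulators, *Nfe2l2* (chr2:75675519-75704641, GRCm38) was among the most abundant transcripts, with a mean above that of 98.9% of symbols. It read 317.1, 157.7, 192.7 and 249.0 FPKM in CTR 1 to 4 and 113.8, 155.3 and 243.4 FPKM in TG 1 to 3. TG 1 and TG 2 lay below every CTR papilloma, whereas TG 3 fell within the CTR range. The means were 229.1 ± 69.7 (SD, n = 4) and 170.9 ± 66.2 FPKM (SD, n = 3), a log2 difference of -0.44 ± 0.32 (SE, adjusted p = 0.842 from limma). Without TG 3 the difference was -0.73, with an unadjusted p = 0.0386 from limma.

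*Keap1* (chr9:21229730-21239332), which encodes the adaptor that keeps Nrf2 low, varied least of the 10 genes. Its values were 9.72, 7.34, 8.67 and 7.54 FPKM in CTR and 8.86, 6.75 and 8.06 FPKM in TG. The groups overlapped almost entirely, at a log2 difference of -0.07 ± 0.17 (SE, adjusted p = 0.972 from limma). Its sign turned when either CTR 1 or TG 2 was left out. The *Nfe2l2* mean was 27.5 times the *Keap1* mean in CTR and 21.6 times in TG.

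*Nqo1* (chr8:107388225-107403205), the quinone reductase most often used as a reporter of Nrf2 activity, read 57.9, 70.3, 44.7 and 44.7 FPKM in CTR and 49.8, 37.9 and 20.9 FPKM in TG. TG 2 and TG 3 were below all CTR values, and TG 1 lay between them. The means were 54.4 ± 12.3 (SD, n = 4) and 36.2 ± 14.5 FPKM (SD, n = 3), and the log2 difference was -0.64 ± 0.30 (SE, adjusted p = 0.767 from limma). An exact two-sided permutation of the group labels over 35 splits gave p = 0.114. TG 3 set much of the size, since the difference was -0.29 without it.

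*Hmox1* (chr8:75093618-75100593), which encodes heme oxygenase 1, was the tested member with a higher TG mean. The CTR papillomas were close together, at 57.4, 50.8, 59.4 and 64.5 FPKM, and the TG papillomas read 159.6, 70.8 and 53.4 FPKM. TG 1 stood alone at 2.75 times the CTR mean, TG 2 was just above the CTR range and TG 3 was inside it. The log2 difference of 0.54 ± 0.33 (SE, adjusted p = 0.827 from limma) rested on TG 1, for it was 0.09 without that papilloma and 0.87 without TG 3. TG 1 was also the papilloma with the high erythroid markers, and their part in the *Hmox1* value was not tested.

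The glutathione branch held 2 of the 3 members that separated the groups. *Gclc* (chr9:77754535-77794489) encodes the catalytic subunit of glutamate-cysteine ligase, the rate-limiting enzyme of glutathione synthesis. Its values were 60.3, 37.7, 32.4 and 39.8 FPKM in CTR and 18.1, 28.2 and 18.0 FPKM in TG. Every TG papilloma was below every CTR papilloma, with means of 42.5 ± 12.2 (SD, n = 4) and 21.4 ± 5.85 FPKM (SD, n = 3). The log2 difference was -0.96 ± 0.25 (SE), with an unadjusted p = 0.00409 and an adjusted p = 0.564 from limma. The exact two-sided permutation p = 0.0286 is the smallest that 35 splits can give. When each papilloma was left out in turn, the difference stayed between -1.17 and -0.79.

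*Gclm* (chr3:122245592-122266648) encodes the modifier subunit of the same enzyme, which raises its efficiency, and its promoter is the first of those printed above. It read 102.7, 96.6, 117.8 and 77.3 FPKM in CTR and 30.7, 63.1 and 71.4 FPKM in TG. Again all TG values were below all CTR values, and TG 1 was far below the rest. The means were 98.6 ± 16.7 (SD, n = 4) and 55.0 ± 21.5 FPKM (SD, n = 3), a log2 difference of -0.91 ± 0.30 (SE, adjusted p = 0.664 from limma). The exact two-sided permutation gave p = 0.0286, its smallest value. Without TG 1 the difference shrank to -0.54, and among the 5 papillomas of lower depth it was -0.45 with an unadjusted p = 0.0711 from limma.

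The subunits were not lower to the same degree in each TG papilloma. Relative to the CTR mean of log2 values, *Gclc* was at -1.17, -0.55 and -1.18 in TG 1 to 3 and *Gclm* at -1.65, -0.62 and -0.45. The ratio of *Gclm* to *Gclc* FPKM was 1.7, 2.56, 3.64 and 1.94 in CTR and 1.69, 2.24 and 3.97 in TG, so the groups overlapped in the balance of the 2 subunits.

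*Slc7a11* (chr3:50364936-50443613) encodes the transporter that brings in cystine, the source of cysteine for glutathione. It read 42.1, 21.9, 19.0 and 21.5 FPKM in CTR and 16, 18.2 and 21.6 FPKM in TG. CTR 1 was far above the other 6 papillomas, which overlapped between 16 and 21.9 FPKM. The log2 difference was -0.41 ± 0.27 (SE, adjusted p = 0.839 from limma), and -0.16 without CTR 1. Among the 3 genes of cystine import and glutathione synthesis, all had lower TG means and *Gclc* and *Gclm* had an unadjusted p under 0.05.

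*Gpx2* (chr12:76792335-76795554), an epithelial glutathione peroxidase that uses glutathione to reduce hydroperoxides, was the most abundant member. It read 332.3, 342.9, 379.4 and 260.9 FPKM in CTR and 260.0, 122.6 and 160.6 FPKM in TG. TG 2 and TG 3 were far below the CTR range, while TG 1 lay at its lower edge, beside CTR 4. The means were 328.9 ± 49.6 (SD, n = 4) and 181.1 ± 70.9 FPKM (SD, n = 3), a log2 difference of -0.92 ± 0.27 (SE), with an unadjusted p = 0.00842 and an adjusted p = 0.608 from limma. The exact two-sided permutation p = 0.0286 was again the smallest possible. The separation was lost under upper-quartile scaling of the libraries, where TG 1 read 264.8 and CTR 4 read 257.3, whereas *Gclc* and *Gclm* kept theirs.

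*Srxn1* (chr2:152105730-152111353) encodes sulfiredoxin, which repairs overoxidized peroxiredoxins, and its promoter holds the most matches of those printed above. It read 37.2, 24.2, 26.9 and 42.4 FPKM in CTR and 35, 26.1 and 20.8 FPKM in TG. Only TG 3 was outside the CTR range, at a log2 difference of -0.25 ± 0.25 between groups (SE, adjusted p = 0.907 from limma).

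*Txnrd1* (chr10:82833951-82897724) encodes cytosolic thioredoxin reductase. Cufflinks marked its estimate in TG 3 as failed, so the gene was fitted without that papilloma, on 6 papillomas. The remaining values were 15.6, 9.62, 10.9 and 14.7 FPKM in CTR and 13.2 and 20.9 FPKM in TG 1 and TG 2. TG 2 was above all CTR values and TG 1 was among them, at a log2 difference of 0.40 ± 0.27 (SE, adjusted p = 0.728 from limma). With 15 splits an exact permutation cannot go below 0.0667, and it gave p = 0.333. With the failed value kept, the log2 difference over 7 papillomas was 0.70, at an unadjusted p = 0.0422 and an adjusted p = 0.721 from limma.

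**Figure D3:**
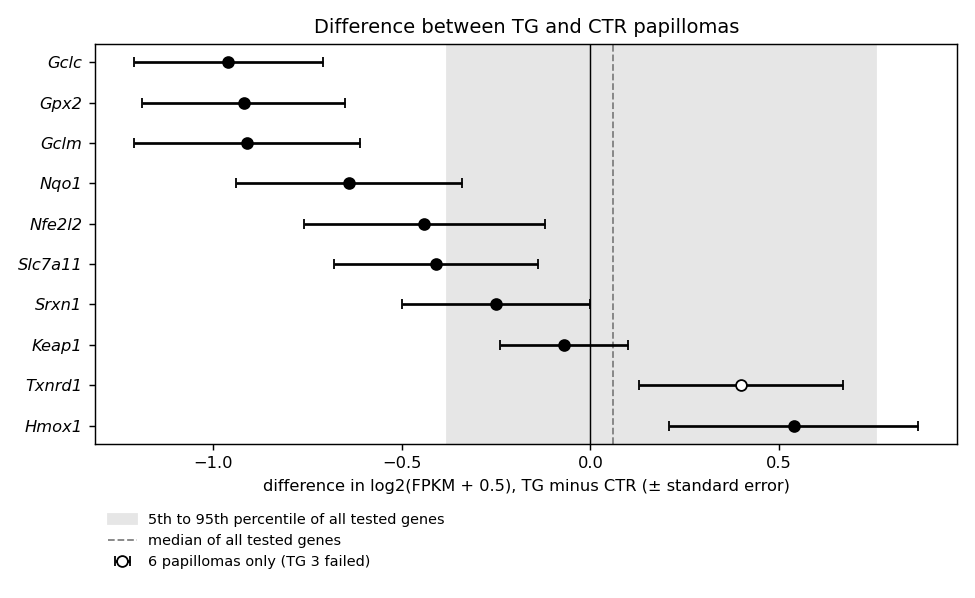
Difference in log2(FPKM + 0.5), TG minus CTR (x axis), for each member with its standard error; the grey band spans the 5th to 95th percentile of all 12299 tested genes (-0.38 to 0.76), and the dashed line is their median of 0.06. *Gclc*, *Gpx2* and *Gclm* lie between -0.96 and -0.91, and *Hmox1* and *Txnrd1* (6 papillomas, open symbol) lie to the right of 0.

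The order of the levels differed between the groups for a few members. In CTR papillomas *Gpx2* and *Nfe2l2* were highest with overlapping ranges, followed by *Gclm*, which lay below both and above *Hmox1* in every one. *Hmox1*, *Nqo1* and *Gclc* overlapped one another, as did *Gclc*, *Srxn1* and *Slc7a11*. *Txnrd1* and *Keap1* were lowest and overlapped, since the lowest *Txnrd1* value was 9.62 FPKM and the highest *Keap1* value 9.72 FPKM. In TG papillomas the means ran from 181.1 FPKM for *Gpx2* and 170.9 FPKM for *Nfe2l2* through 94.6 FPKM for *Hmox1* and 55.0 FPKM for *Gclm* to 27.3 FPKM for *Srxn1*, 21.4 FPKM for *Gclc*, 18.6 FPKM for *Slc7a11* and 7.89 FPKM for *Keap1*. The means of *Hmox1* and *Gclm*, and those of *Srxn1* and *Gclc*, thus stood in the reverse of their CTR order, although the TG ranges of each pair overlapped.

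No TG papilloma was the lowest for all lower members. Among the 9 tested members, TG 1 was the lowest papilloma for 3 (*Nfe2l2*, *Slc7a11* and *Gclm*), TG 2 for 2 (*Keap1* and *Gpx2*), TG 3 for 3 (*Nqo1*, *Gclc* and *Srxn1*) and CTR 2 for 1 (*Hmox1*). CTR 1 was the highest for 4 of them (*Nfe2l2*, *Keap1*, *Slc7a11* and *Gclc*). Relative to the CTR mean of log2 values, *Gpx2* was at -0.33, -1.41 and -1.02 in TG 1 to 3 and *Nqo1* at -0.10, -0.49 and -1.33, an order unlike that of *Gclm*.

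The pattern of *Nqo1* over the papillomas was compared with the other 9 members. By Pearson r the closest was *Gpx2* (n = 7 papillomas, r = 0.70, exact permutation p = 0.0821, Spearman rho = 0.57, exact permutation p = 0.2). By Spearman rho it was *Gclc* (n = 7, r = 0.63, exact permutation p = 0.127, rho = 0.64, exact permutation p = 0.139). The order depended on single papillomas and on the scaling. Without CTR 2 and TG 3, the extremes of *Nqo1*, r was 0.70 for *Gpx2*, 0.42 for *Gclc* and 0.69 for *Slc7a11*, and that of *Keap1* went from 0.16 to 0.93. Under upper-quartile scaling r was 0.75 for *Gpx2*, 0.70 for *Gclc* and 0.63 for *Keap1*, and under quantile normalization it was 0.69, 0.72 and 0.70. *Txnrd1*, over 6 papillomas, went from -0.66 to 0.62 without CTR 2 and TG 2. None of the 9 relations passed adjustment, the lowest Benjamini-Hochberg values being 0.442 for r and 0.744 for rho in exact permutation tests. These relations pool CTR and TG papillomas, and r was not computed within a group or within the 5 papillomas of lower depth. Over 12290 other tested genes, the 5 whose log2 values were most alike to those of *Nqo1* over the 7 papillomas were *Lias* (r = 0.992), *Naca* (0.988), *Sip1* (0.987), *Rpl4* (0.973) and *Dffb* (0.949), given as a description.

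Further genes of the pathway were counted from lists of known roles. Of 24 other known Nrf2 targets, 23 could be tested (*Abcc4* had a failed estimate), and 19 had lower and 4 higher TG means, with a median log2 difference of -0.18. The share with a lower mean was 82.6%, against 40.0% of all tested genes, and under upper-quartile scaling it was 87.0% against 49.7%. This list was chosen with earlier results of these data known, so the share is given as a description. At an unadjusted p under 0.05, limma gave 2 lower targets, *Aldh3a1* and *Cbr3*, and 0 higher, against 1.96% and 4.86% of all tested genes, and at an adjusted p under 0.05 it gave 0.

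*Aldh3a1*, an aldehyde dehydrogenase that clears products of lipid peroxidation, differed most. It read 75.5, 243.6, 118.7 and 64.3 FPKM in CTR and 3.18, 25.1 and 38.4 FPKM in TG. No TG value reached the lowest CTR value, a pattern shared by 2.23% of tested genes, and the CTR mean was 5.65 times the TG mean. The log2 difference was -2.83 ± 0.77 (SE, adjusted p = 0.587 from limma), and -1.79 without TG 1, the lowest papilloma. *Cbr3*, a carbonyl reductase, had overlapping groups of 44.5 to 60.2 and 23.5 to 52.0 FPKM. Its log2 difference was -0.64 (adjusted p = 0.705 from limma) and -0.38 without TG 3. This call, at an unadjusted p = 0.0348 from limma, was lost without TG 3, TG 2, CTR 1, CTR 2 or CTR 3. The unadjusted limma values were then 0.139, 0.0885, 0.0653, 0.0743 and 0.0693 in that order. Among the pentose phosphate enzymes, the log2 difference was -0.03 for *G6pdx* and -0.27 for *Pgd*, whose products make NADPH, and -0.42 for *Taldo1* and -0.04 for *Tkt* of the branch that does not. The ferritin heavy chain gene *Fth1* was among the 4 with a higher TG mean, at 0.36 on the log2 scale, and the light chain gene *Ftl1* stood at -0.19.

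**Figure D4:**
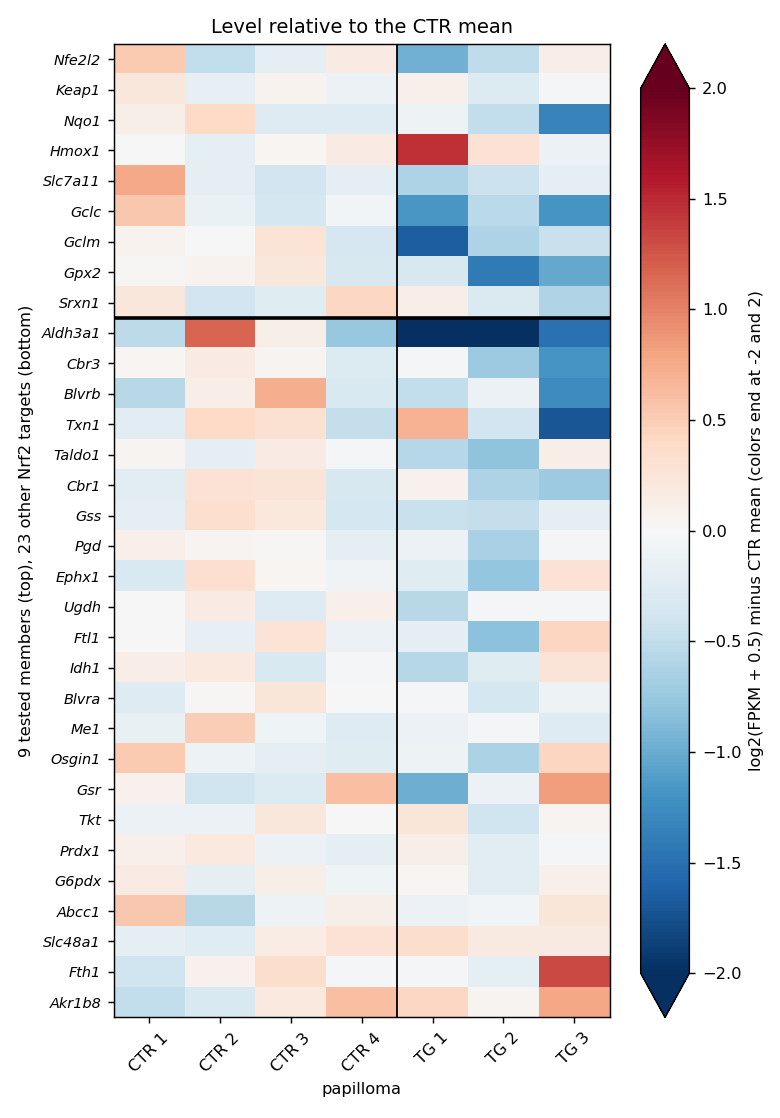
Heat map of log2(FPKM + 0.5) minus the mean of the CTR papillomas, with 1 line per gene (9 tested members above the black line, 23 other Nrf2 targets below) and 1 column per papilloma; blue is lower and red is higher than the CTR mean, and colors end at -2 and 2. Most targets are pale, *Aldh3a1* is blue in all 3 TG papillomas, and the TG papillomas differ in which genes are lowest.

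Among the partners and modulators of Nrf2, higher TG means were the more common, as they were over all tested genes in the values as deposited. Of 11 listed genes, 10 could be tested (*Nfe2l1* had a failed estimate), and 8 had higher and 2 lower TG means, with a median log2 difference of 0.18 and a range of -0.08 to 0.48. A higher TG mean was found for 60.0% of all tested genes as deposited. Under quantile normalization it was found for 5528 of 12299 tested genes and for 7 of the 10 on this list. Without TG 3 it was found for 5503 of 12009 and for 7 of 9. *Sqstm1*, whose product p62 binds Keap1 and is itself a target of Nrf2, was higher in every TG papilloma, a pattern shared by 4.93% of tested genes. It read 33.9, 30.0, 32.9 and 31.5 FPKM in CTR and 39.1, 36.3 and 64.2 FPKM in TG. TG 3 was far above the other 6 papillomas, and the log2 difference of 0.48 ± 0.21 (SE, adjusted p = 0.729 from limma) was 0.23 without it. The muscle, fibroblast and macrophage markers were high in the same papilloma, and their part in this value was not tested. *Bach1*, which encodes a repressor that competes with Nrf2 for its elements, had means of 4.39 FPKM in CTR and 5.94 FPKM in TG (log2 difference 0.41, unadjusted p = 0.0873 from limma).

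Among 19 other antioxidant enzymes, all tested, 12 had higher and 7 lower TG means, with a median log2 difference of 0.10. A higher mean was found for 60.0% of all tested genes as deposited. Among these enzymes the count turned to 9 higher and 10 lower without TG 1 and among the papillomas of lower depth. At an unadjusted p under 0.05, limma gave 1 lower (*Cat*) and 2 higher (*Txnrd3* and *Sod3*), against 1.96% and 4.86% of all tested genes, and at an adjusted p under 0.05 it gave 0. *Cat* encodes catalase, the peroxisomal enzyme that splits hydrogen peroxide. It read 47.7, 40.3, 47.3 and 40.4 FPKM in CTR and 17.1, 25.5 and 31.2 FPKM in TG. No TG value reached the lowest CTR value, as for 2.23% of tested genes, at a log2 difference of -0.86 ± 0.21 (SE, adjusted p = 0.563 from limma). The difference stayed between -1.05 and -0.63 when each papilloma was left out. *Cat* was named because its groups did not overlap, so its exact two-sided permutation p = 0.0286 is no further evidence of a difference. *Sepx1*, a methionine sulfoxide reductase, was higher in every TG papilloma, at 27.4 to 37.5 FPKM against 17.0 to 27.1 FPKM, a pattern shared by 4.93% of tested genes. The log2 difference of *Sepx1* was 0.39 ± 0.21 (SE, adjusted p = 0.813 from limma), and an exact two-sided permutation gave p = 0.0857. *Txnrd3* read 4.13 to 6.15 FPKM in CTR and 9.66, 9.25 and 4.76 FPKM in TG, and *Sod3*, the extracellular superoxide dismutase, was highest in TG 3 at 8.44 FPKM against 0.602 to 1.94 FPKM elsewhere. Without TG 3 the log2 difference of *Sod3* was 0.47, against 1.19 with it, and that of *Txnrd3* was 0.90, against 0.60. Neither call was stable: the unadjusted p from limma was 0.114 for *Txnrd3* under upper-quartile scaling and 0.191 under quantile normalization, and for *Sod3* it was 0.0557 with a pseudocount of 1, 0.0774 without a filter and 0.141 without TG 3.

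**Figure D5:**
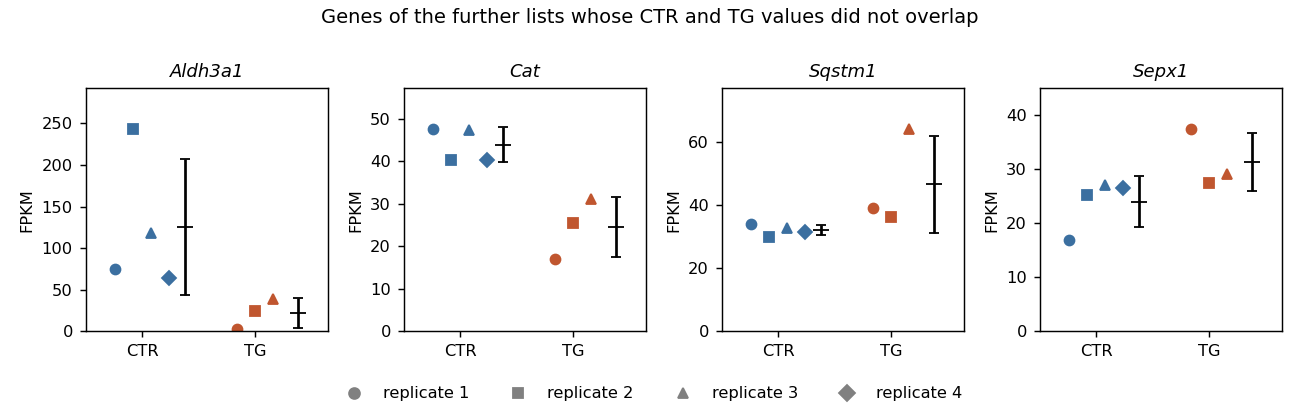
FPKM (y axis, from 0) of the 4 genes of the further lists whose CTR and TG values did not overlap; each symbol is 1 papilloma, and the bar beside each group is its mean ± SD. *Aldh3a1* and *Cat* are lower and *Sqstm1* and *Sepx1* higher in the 3 TG papillomas, and TG 3 has the highest *Sqstm1* value, at 64.2 FPKM. Of all tested genes, 2.23% were lower and 4.93% higher in every TG than in every CTR papilloma.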

How the data were processed

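RNA-seq of polyadenylated RNA from papillomas of 4 CTR and 3 TG mice was read from 1 deposited file per mouse. The labels gave the group and replicate number. The authors prepared stranded libraries, aligned single reads with TopHat 2.0.4 (which called Bowtie 0.12.7 and Samtools 0.1.16) to the mouse build GRCm38, and quantified each library with Cufflinks 1.3.0, depositing FPKM values with an interval and a status. Files held 23746 entries, and entries that shared a symbol were summed. No depth is stated, so it was inferred from the intervals. Cufflinks divides reads between overlapping transcripts, which can move a value without a change in reads.

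FPKM values were tested as log2(FPKM + 0.5), a scale that understates changes of low genes, in limma 3.58.1 (R 4.3.3) with a variance trend, for 12299 genes without a failed estimate whose mean reached 0.5 FPKM. Benjamini-Hochberg adjustment covered all of them (threshold 0.05). Single genes were also compared by exact permutation. Permutations and tables were made in Python 3.11.15 (scipy 1.17.1; numpy 2.4.6; pandas 2.3.3) and plots in matplotlib 3.10.9. The fit was tested on simulated data.

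All members are named. From the further lists, genes were named whose groups did not overlap. *Cbr3*, *Txnrd3* and *Sod3* (unadjusted p under 0.05) and *Taldo1*, *Pgd*, *Tkt*, *G6pdx*, *Fth1*, *Ftl1* and *Bach1* were added after their values were seen. The members, the pathway lists and the marker lists (keratinocyte, skeletal muscle, fibroblast, macrophage, neutrophil, erythroid, endothelial, adipocyte, T cell and mast cell) were chosen with earlier results of these data known. Alternatives covered the pseudocount, the filter, the scaling, quality weights, the variance trend, the status, the entries of a symbol, depth, the replicate block and each papilloma left out. Promoter sequences are from RefSeq.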

Additional observations from a re-analysis of the deposited data

Results flagged for a closer look

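*Slc7a11* in CTR 1 read 42.1 FPKM, far above the other 3 CTR papillomas at 19.0 to 21.9 FPKM. The gap to the nearest of them was 0.876 of the range of the CTR group, beyond the limit of 0.829 that Dixon's test sets for 4 samples. It was 1 of 14 genes examined in this way in the CTR group, and chance gives about 1 such value in 20 groups. Without CTR 1 the log2 difference of *Slc7a11* was -0.16, against -0.41 with it.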

How the results depend on the processing

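Under 19 alternatives to the processing, 170 of 172 recomputed member differences kept their direction and their side of the adjusted threshold. Both exceptions were *Keap1*, at 0.00 without CTR 1 and 0.03 without TG 2. The side of the threshold had little room to change, since no member's adjusted p from limma was below 0.564 as reported. Sizes moved more: with 1 papilloma left out, the log2 difference ran from 0.09 to 0.87 for *Hmox1* and from -0.91 to -0.29 for *Nqo1*. No member reached an adjusted p under 0.05 in limma under any alternative, whereas at an unadjusted p under 0.05 the lower members numbered 3 to 4. The lowest adjusted p of a member was 0.057 from limma, for *Gpx2* under sample quality weights. With 1 papilloma left out, genes higher at an unadjusted p numbered 365 to 824 and lower 121 to 525, genes passing adjustment 0 to 9 higher and 0 to 8 lower, and members higher at an unadjusted p 0 to 1 (*Hmox1* without TG 3). Lower genes at an unadjusted p numbered 241 as reported, 418 under upper-quartile scaling, 551 under quantile normalization and 1248 under sample quality weights, and higher genes 598 as reported, 954 without a filter and 1161 under quality weights. The higher share of these calls was 71.3% as reported, 55.2% under upper-quartile scaling, 42.2% under quantile normalization and 48.2% under quality weights, while the members' median log2 difference was -0.44, -0.51, -0.47 and -0.37. Quality weights gave 49 higher and 36 lower genes at an adjusted p under 0.05, and the papillomas of lower depth gave 1 higher; the cause was not tested. With 1 papilloma left out, the correlation with *Nqo1* changed sign for *Nfe2l2* (-0.53 to 0.09), *Keap1* (-0.06 to 0.43), *Hmox1* (-0.26 to 0.35), *Srxn1* (-0.12 to 0.81) and *Slc7a11* (-0.15 to 0.44). The turns came without TG 3 for *Nfe2l2*, *Hmox1* and *Srxn1*, without TG 1 for *Hmox1* (-0.12) and without CTR 1 for *Keap1* and *Slc7a11*.

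The labels do not say whether same-numbered CTR and TG papillomas share more than a number. The correlations of their deviations ran from -0.186 to 0.043, against -0.216 to 0.312 for papillomas of unlike number. With 3 same-numbered pairs, these values cannot decide whether the papillomas were paired. With the replicate number as a block, which leaves out CTR 4, 4 members were lower at an unadjusted p under 0.05 (*Nqo1* was added), with *Gclc* at -0.98, *Gclm* at -1.02 and *Gpx2* at -1.02, and 0 members and 0 genes passed adjustment.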
